A study of Mus musculus with 6 samples.

Results

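Tubulins are the building blocks of microtubules, and 10 mouse tubulin genes are described here in activated CD4+ T cells: the beta-tubulin genes Tubb6, Tubb2a, Tubb2b, Tubb3, Tubb4a, Tubb4b and Tubb5 and the alpha-tubulin genes Tuba1a, Tuba1b and Tuba4a. All probe sets that the array annotation assigns to these genes were taken, also those that carry a further gene symbol. This gave 14 of the 25335 probe sets with a gene symbol, 9 for beta and 5 for alpha isotypes. The set was chosen by the icilin minus vehicle difference of Tubb6, known beforehand, with its fellow isotypes taken by family. The differences of all 10 genes between the groups are therefore given as a description, without a test.

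The 6 arrays were Affymetrix Mouse Gene 2.0 ST arrays of total RNA from purified splenic CD4+ T cells of female wild-type C57BL/6 mice about 8 weeks old. All cells had been activated in culture for 24 h with antibodies to CD3 and CD28 (10 µg/mL of each), which trigger the T cell receptor and costimulation. For a further 24 h they received 100 µM icilin dissolved in DMSO (3 arrays) or the matching amount of DMSO, called vehicle (3 arrays). Icilin, a synthetic agent that feels cold, is an agonist of TRPM8 and TRPA1, cation channels of sensory nerves. Both groups came from the same 3 mice, so n = 3 counts cultures of separate mice within each group. The cells are bulk cultures, in which fewer cells of a type and less RNA per cell cannot be told apart.

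Alpha- and beta-tubulin form a dimer that binds GTP and assembles head to tail into the microtubule wall. Mammals carry several genes for each partner, whose proteins differ mainly in the acidic tail at their carboxyl end, where most tubulin-modifying enzymes and many motors act. In an activated T cell, microtubules carry the centrosome to the contact with the antigen-presenting cell, guide secretory granules there and build the mitotic spindle. Cells also adjust tubulin mRNA to the amount of free dimer: the protein TTC5 recognises the first residues of a newly made tubulin chain and triggers decay of its mRNA.

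The arrays were alike in scale, with medians of 4.24 to 4.30 on the log2 scale over the whole table. Within a group any pair of arrays correlated at r = 0.996, and between groups at 0.994; these are correlations across probe sets, not over independent samples. Of 11 listed CD4+ T cell markers 9 were matched, among them Cd4 and Cd3e, and these stood at brightness percentiles 92.7 to 99.6 of all named probe sets with 0 called by limma (1 higher at a raw p below 0.05). Of 44 measured markers of CD8 and natural killer, B, myeloid, platelet and red, stromal, and neural cells, 17 were brighter than the median probe set, and 1 was called, the B cell gene Ms4a1 (higher by 1.01). To be called, a probe set needed a limma adjusted p below 0.1 together with a 1.5-fold change or more (0.58 on the log2 scale), as the study set its limits. Of all named probe sets 344 (1.36%) were called, 257 lower (1.01%) and 87 higher (0.343%). A raw limma p below 0.05 was reached by 16.6% of them, 8.75% higher and 7.82% lower.

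Among the 10 genes, Tubb6 was much lower with icilin and the others stayed close to their vehicle level. Tubb6 encodes the class V beta-tubulin, a widely expressed minor isotype that weakens the microtubule network when overproduced. Its probe set (17351465) read 7.94, 8.17 and 7.99 in the vehicle arrays and 6.16, 6.35 and 6.34 in the icilin arrays, all on the log2 scale. Every icilin array lay below every vehicle array, with a gap of 1.59 between the highest icilin and the lowest vehicle value. The group means were 8.04 ± 0.12 (SD, n = 3) and 6.29 ± 0.11 (SD, n = 3). The difference was -1.75 ± 0.09 (SE), which is 3.37-fold lower, or 29.7% of the vehicle level. Between arrays of the same number, which the labels do not tie to a mouse, it was -1.78, -1.82 and -1.65. Of all named probe sets, 10 were lower by more.

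**Figure D1:**
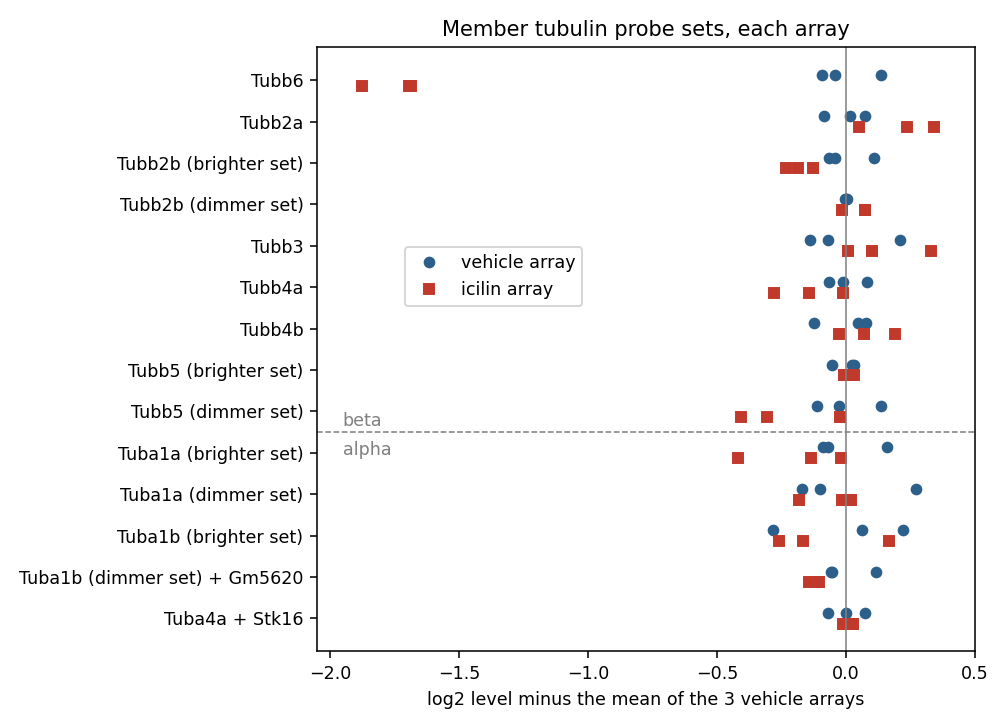
Each row is a probe set of the 10 tubulin genes, and the x axis gives the log2 level of each array minus the mean of the 3 vehicle arrays (circles, vehicle; squares, icilin; the dashed line parts beta from alpha isotypes). The icilin arrays of Tubb6 lie between -1.88 and -1.69, whereas the mean differences of the other 13 probe sets lie between -0.25 and 0.21.

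Tubb5 encodes the class I beta-tubulin, the main beta isotype of dividing cells. Its brighter probe set (17344444) was at 12.36, 12.28 and 12.37 in vehicle arrays and at 12.35, 12.33 and 12.37 in icilin arrays, a difference of 0.01 ± 0.06 (SE). The 2 groups covered each other, and all 6 arrays fell within 0.09. A second Tubb5 probe set (17548000) read 9.88, 9.72 and 9.63 with vehicle and 9.72, 9.34 and 9.43 with icilin. That difference was -0.25 ± 0.12 (SE), the largest in size of the 13 probe sets other than Tubb6, and its groups overlapped. The probe sets of this gene thus disagreed by more than the SE of either.

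Tubb2a and Tubb2b encode the class II beta-tubulins, best known from the nervous system, and lie next to each other in the genome. Tubb2a (17291767) was at 6.52, 6.36 and 6.46 in vehicle arrays and at 6.78, 6.68 and 6.50 in icilin arrays, a difference of 0.21 ± 0.09 (SE). This was the highest positive difference among the 10 genes, and icilin replicate 3 lay below the highest vehicle array. The brighter Tubb2b probe set (17291780) read 4.17, 4.15 and 4.32 with vehicle and 4.03, 3.98 and 4.09 with icilin, a difference of -0.18 ± 0.07 (SE). Its groups did not overlap, by a gap of 0.06. The second Tubb2b probe set (17286496) differed by 0.04 ± 0.06 (SE), and its 6 arrays fell between 3.62 and 3.71. Both Tubb2b probe sets were dimmer than the median named probe set, at percentiles 43.4 and 34.2, where a change is compressed toward 0.

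The remaining beta isotypes had small differences of either sign. Tubb3, the class III isotype used as a marker of neurons, was dim (percentile 48.4) and differed by 0.14 ± 0.12 (SE), from 4.34 ± 0.19 to 4.49 ± 0.17 (SD, n = 3). Tubb4a, the class IVa isotype found mainly in brain, went from 5.78 ± 0.07 to 5.64 ± 0.13 (SD, n = 3), a difference of -0.15 ± 0.09 (SE). Tubb4b, the broadly expressed class IVb isotype, went from 5.25 ± 0.11 to 5.33 ± 0.11 (SD, n = 3), a difference of 0.08 ± 0.09 (SE). In each of these genes the vehicle and icilin arrays overlapped. Of the 8 beta probe sets other than that of Tubb6, 5 had a difference above 0 and 3 one below 0.

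The alpha isotypes were also close to vehicle. Tuba1a and Tuba1b, with Tuba1c, form a run of neighbouring genes, and their coding sequences are so alike that a probe can read more than 1 of them. The brighter Tuba1a probe set (17321474) read 6.81, 7.04 and 6.79 with vehicle and 6.86, 6.46 and 6.74 with icilin, a difference of -0.19 ± 0.12 (SE), with overlap because icilin replicate 1 lay above the vehicle arrays of replicates 1 and 3. The dimmer one (17314682) differed by -0.06 ± 0.13 (SE).

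Tuba1b, the alpha isotype of most dividing cells, had a probe set annotated with its symbol alone (17314679). Its difference was -0.09 ± 0.16 (SE), the widest error among the 14. A second probe set (17321467), shared with the predicted gene Gm5620, read 6.68, 6.51 and 6.50 with vehicle and 6.45, 6.42 and 6.46 with icilin. Its groups did not overlap, by a gap of 0.04, and the difference was -0.12 ± 0.07 (SE).

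Tuba4a, an alpha isotype that lacks the encoded final tyrosine, is read by a probe set (17224540) shared with its neighbour Stk16, a kinase gene. It was at 10.95, 10.88 and 10.81 with vehicle and 10.90, 10.90 and 10.87 with icilin, a difference of 0.01 ± 0.07 (SE) with full overlap. The signal cannot be divided between the genes, and a probe set of Stk16 alone differed by 0.07 ± 0.06 (SE).

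Of the 14 probe sets, that of Tubb6 met the limits for a call, as did 1.36% of all named probe sets; since Tubb6 was chosen for this difference, nothing is read from that count. The groups did not overlap in 3 of the 14, all with icilin lower: Tubb6, the brighter Tubb2b probe set and the shared Tuba1b probe set. Of all named probe sets 23.4% did not overlap in either direction and 10.3% with icilin lower. Tubb6 is counted here too, so nothing is read from this count either. The median difference of the 14, Tubb6 included, was -0.07, and that of all named probe sets 0.01.

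The alpha and beta isotypes overlapped in their differences. The mean difference was -0.09 over the 5 alpha probe sets (from -0.19 to 0.01) and -0.20 over the 9 beta probe sets, and the beta value rested on Tubb6: without it the mean of the other 8 was -0.01 and their range -0.25 to 0.21. Centred on the vehicle mean, the alpha probe sets averaged 0.09, 0.03 and -0.12 in the vehicle arrays and 0.02, -0.14 and -0.14 in the icilin arrays. The beta probe sets without Tubb6 averaged 0.02, -0.06 and 0.05 with vehicle and 0.05, -0.04 and -0.04 with icilin. In both series of averages the groups overlapped. With 3 arrays against 3, an exact permutation test cannot give a p under 0.1, and none was run on these averages because the genes were chosen with the results known.

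The proximal promoters of the isotype genes were read beside these values. The 100 bases before the annotated start were read from RefSeq (build GRCm38.p6) for 8 genes, all but Tubb2b and Tubb6. Shown are the 5 of the 8 that hold a match to a motif named below: Tubb2a, Tubb5, Tubb3, Tubb4b and Tuba1a. Whether a motif goes with a difference was not tested. Capitals mark matches on either strand to TATAA (the core of the TATA box), CCAAT (the CCAAT box, ATTGG when on the other strand) and TGACGTCA (the cyclic AMP response element, bound by CREB and ATF factors); TATAA matches on opposite strands overlap in Tubb3. They lie at chr13:34078009-34078108 (minus strand) for Tubb2a, chr17:35838302-35838401 (minus) for Tubb5, chr8:123411453-123411552 (plus) for Tubb3, chr2:25224703-25224802 (minus) for Tubb4b and chr15:98953502-98953601 (minus) for Tuba1a.
Tubb2a: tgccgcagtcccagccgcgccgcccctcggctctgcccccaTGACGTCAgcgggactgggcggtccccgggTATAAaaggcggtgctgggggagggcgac
Tubb5: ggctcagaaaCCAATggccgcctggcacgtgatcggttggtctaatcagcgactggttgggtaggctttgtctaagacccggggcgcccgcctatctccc
Tubb3: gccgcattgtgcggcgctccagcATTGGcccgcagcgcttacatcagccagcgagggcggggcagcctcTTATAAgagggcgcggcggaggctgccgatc
Tubb4b: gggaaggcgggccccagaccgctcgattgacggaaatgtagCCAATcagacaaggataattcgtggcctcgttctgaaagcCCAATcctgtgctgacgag
Tuba1a: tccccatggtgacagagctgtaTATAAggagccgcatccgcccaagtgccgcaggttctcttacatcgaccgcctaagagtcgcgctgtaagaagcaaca

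Tubb2a and Tubb3 carry TATAA with its first base 29 and 30 bases before the start, and Tuba1a has it 78 bases before. Of the 8 promoters read, 3 hold TATAA, against 10.2% of the 32851 windows of the same length in the RefSeq table. CCAAT is in 3 of the 8 (Tubb3, Tubb4b and Tubb5) and in 18.9% of all windows. TGACGTCA is in Tubb2a alone among the 8, 59 bases before the start, and in 1.15% of all windows. The promoters of Tubb4a, Tuba1b and Tuba4a have none of these letters in this window. These are matches of letters, not measured binding.

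Tubulin genes outside the 10 were tested, and 2 of them fell. These are Tuba1c, Tuba3a, Tuba3b, Tuba8, Tubal3, Tubb1, Tubg1, Tubg2, Tubd1 and Tube1, read by 12 probe sets, of which 2 were called lower, 0 higher (1.01% and 0.343% of all named probe sets) and 10 not called. Tubg2 encodes the second gamma-tubulin, a part of the ring complex from which microtubules grow. It was at 5.86, 5.78 and 5.66 in vehicle arrays and at 4.77, 4.80 and 4.85 in icilin arrays, with no overlap. It fell by 0.96 on the log2 scale, 1.95-fold (SE 0.08, limma adjusted p = 0.00162). Its neighbour Tubg1, the main gamma-tubulin gene of dividing cells, stood at 9.07 ± 0.13 with vehicle and 8.91 ± 0.09 with icilin (SD, n = 3), a difference of -0.16 ± 0.09 (SE; limma adjusted p = 0.430). Whether the gamma-tubulin genes differ from each other in response was not tested.

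Tube1 encodes epsilon-tubulin, which centrioles need to build their triplet microtubules. It was at 8.56, 8.51 and 8.54 with vehicle and 7.90, 7.97 and 7.97 with icilin, and fell by 0.59, 1.50-fold (SE 0.06, limma adjusted p = 0.00461). The arrays of either group were close together, but the change sits at the fold limit. Its call ended without icilin replicate 1 (-0.57), without vehicle replicate 1 (-0.58) and with median-centred arrays (-0.57), in each case by the fold and not by the adjusted p. Tubd1, for delta-tubulin, its partner at the centriole, differed by 0.11 ± 0.07 (SE; limma adjusted p = 0.491).

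The other alpha and beta genes outside the 10 were not called. Tuba1c, the third gene of the Tuba1 run, differed by -0.07 on its brighter probe set (limma adjusted p = 0.697). Tuba3a and Tuba3b, alpha genes known from testis, share both of their probe sets, which differed by -0.38 (limma adjusted p = 0.156) and 0.03. Tuba8 differed by -0.20 (adjusted p = 0.471) on its brighter probe set and Tubal3 by 0.08 (adjusted p = 0.796), both by limma. Tubb1, the beta isotype of platelets and megakaryocytes, was among the dimmest, at percentile 19.0, with a difference of -0.30 ± 0.09 (SE; limma adjusted p = 0.176) and no overlap. Beside it, the 8 measured platelet and red cell markers averaged 3.85 to 3.95 in vehicle and 3.61 to 3.74 in icilin arrays, 5 of 8 were below 0, 0 were called by limma (2 lower at a raw p below 0.05), and 3 of 8 were brighter than the median probe set; their part in the Tubb1 value was not tested.

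**Figure D2:**
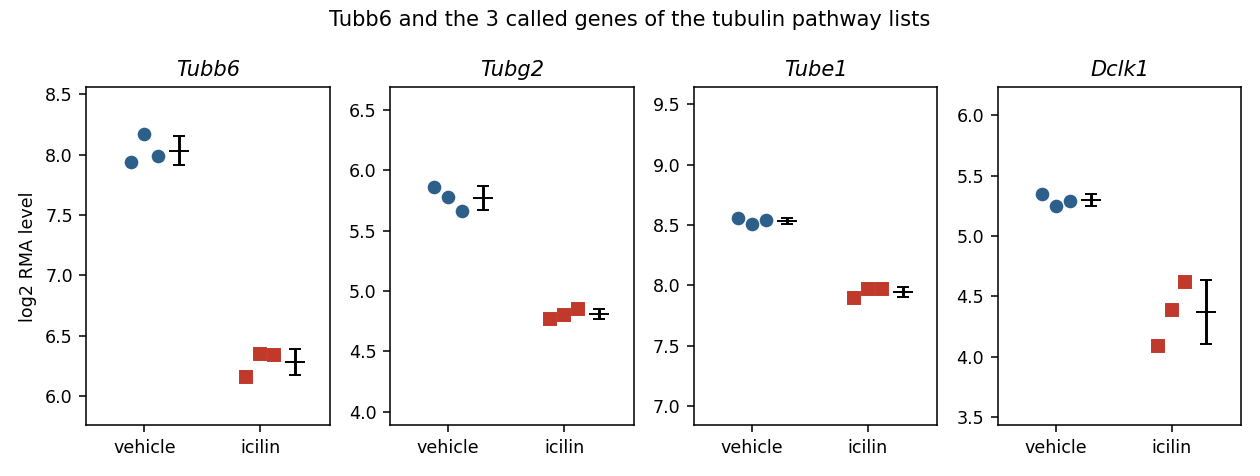
Log2 levels of Tubb6 and of the 3 pathway genes that were called (Tubg2, Tube1 and Dclk1), with circles for the 3 vehicle and squares for the 3 icilin arrays, and the mean with SD beside them; all panels span the same number of log2 units but not the same range. In each gene all icilin arrays lie below all vehicle arrays, with differences of -1.75, -0.96, -0.59 and -0.93.

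Genes that act on tubulin, and genes for comparison, were taken from 6 lists beside the other tubulin genes. These were folding and autoregulation, modification, nucleation, microtubule-associated proteins, motors, and, for comparison, the actin and intermediate filaments. The genes of all 7 lists are called pathway genes, and counts over them include the 20 comparison genes. Over all 7 lists 165 of 168 genes were measured; 3 of the 165 (1.82%) were called, all lower, beside 1.36% of all named probe sets, and their median difference was -0.01. The called genes were Tubg2, Tube1 and Dclk1. The counts at a raw p given below for lists without a call come to 13% of the folding, 18.5% of the modification, 22.7% of the nucleation, 19.2% of the motor and 20% of the actin and intermediate filament genes. Of the lists with a call, the other tubulin genes gave 50% (5 of 10, all lower) and the microtubule-associated genes 13.5%. Among those 5, Tuba3a and Tuba3b are read by the same probe set. All named probe sets gave 16.6%, and nothing is read from these counts.

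No gene of tubulin folding met the limits. This list has the prefoldin and chaperonin subunits that fold new tubulin chains, the cofactors that join alpha to beta, and the mRNA autoregulation genes Ttc5 and Scaper. Limma and significance analysis of microarrays (SAM), the method the study names, called 0 of 23, with 2 higher and 1 lower at a raw (unadjusted) p below 0.05. The median difference was 0.06, and 20 of 23 were above 0. All 23 were brighter than the median probe set, and the median difference with dim probe sets left out was 0.02. The share of all named probe sets above 0 was not taken, so nothing is read from the count of 20. The differences ran from -0.23 for Arl2, the GTPase that works with the cofactors (limma adjusted p = 0.251), to 0.21 for Tbca (limma adjusted p = 0.278). Ttc5 differed by 0.06 ± 0.08 (SE) and Scaper, its partner, by 0.13 ± 0.06 (SE); neither passed the test.

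Among 27 tubulin-modifying enzymes limma called 0, with 0 higher and 5 lower at a raw (unadjusted) p below 0.05, and the median was -0.08. The member with the smallest p was Agbl5, a carboxypeptidase that removes glutamates from tubulin. It read 6.63, 6.93 and 6.95 with vehicle and 6.28, 6.17 and 6.33 with icilin, with no overlap. Its difference of -0.58 ± 0.10 (SE) passed the adjusted p by limma (0.0327) and missed the fold limit at 1.49-fold. It was called without icilin replicate 3 (-0.61) and without vehicle replicate 1 (-0.68). With any other array left out, its limma adjusted p was 0.11 to 0.124, above the limit. With every probe set of the table in the fit it was 0.102. SAM called 1 of the list, Ttll2, a polyglutamylase gene named after its values were seen (-0.61 ± 0.18, limma adjusted p = 0.152), whose probe set was dim (percentile 32.0). The ligase Ttl, which returns the final tyrosine to alpha-tubulin, differed by -0.04 and the deacetylase Hdac6 by -0.10, and neither passed; both were chosen after their values were seen.

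Nucleation factors, the gamma-tubulin complex and augmin, had a median of 0.04, and limma and SAM called 0 of 22, with 4 higher and 1 lower at a raw (unadjusted) p below 0.05. The smallest p was that of Cdk5rap2, which anchors the ring complex at the centrosome (0.27 ± 0.07, limma adjusted p = 0.126). Of 37 microtubule-associated, severing and depolymerising proteins Dclk1 fell, and 36 were not called, with a median of -0.05. Dclk1 encodes a doublecortin-like kinase that binds the microtubule wall. It was at 5.35, 5.25 and 5.29 in vehicle arrays and at 4.09, 4.39 and 4.62 in icilin arrays, where the spread was wider but did not reach the vehicle values. It fell by 0.93, 1.90-fold (SE 0.13, limma adjusted p = 0.0150). The destabiliser Stmn1 differed by 0.23 ± 0.06 (SE; limma adjusted p = 0.126) and the plus-end protein Mapre2 by -0.42 ± 0.10 (SE; limma adjusted p = 0.0779), short of the fold limit; both were chosen after their values were seen.

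For transport kinesins, dynein and dynactin the count of calls by limma and by SAM was 0 of 26; at a raw (unadjusted) p below 0.05, 2 were higher and 3 lower, and the median was -0.05. Kif3b, a subunit of the heterotrimeric kinesin, had the smallest p (-0.25 ± 0.07, limma adjusted p = 0.111). Of 20 actin and intermediate filament genes limma and SAM called 0, with 2 higher and 2 lower at a raw (unadjusted) p below 0.05 and a median of -0.04. The nuclear lamina gene Lmnb1 had a difference of 0.38 ± 0.06 (SE; limma adjusted p = 0.0226), below 1.5-fold. The intermediate filament gene Vim, chosen after its values were seen, differed by -0.35 ± 0.06 (SE; limma adjusted p = 0.0354) on its brighter probe set, while a dimmer one passed both limits (-0.62 ± 0.13, limma adjusted p = 0.0568). Beta-actin (Actb), also named afterwards, differed by -0.01 ± 0.06 (SE).

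**Figure D3:**
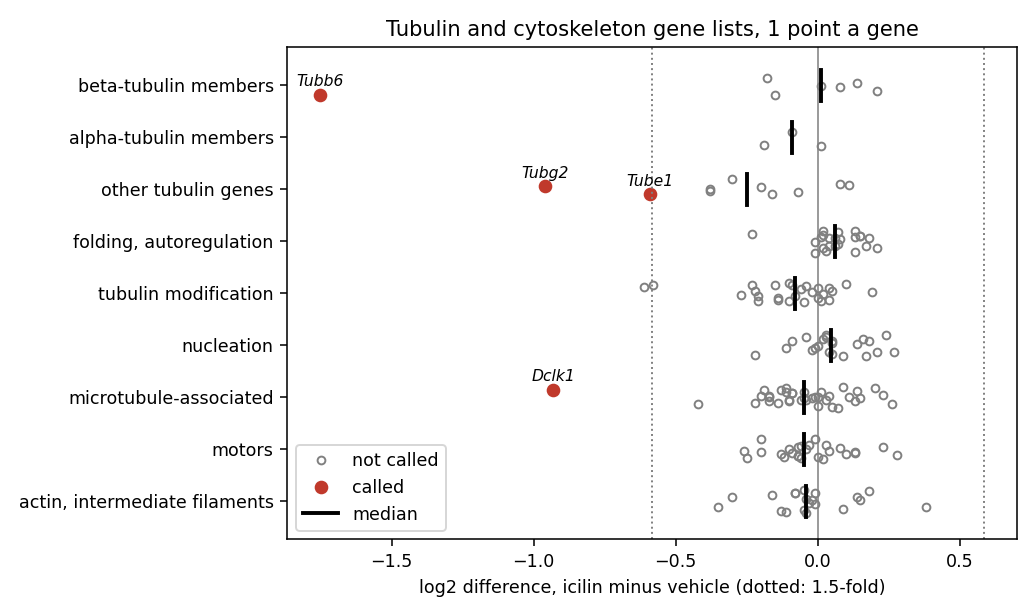
Log2 difference, icilin minus vehicle, of each gene in the tubulin and cytoskeleton lists, 1 point a gene on its brightest probe set, with filled points for called genes, black bars for list medians and dotted lines at 1.5-fold. Tubb6 at -1.75 is the point farthest from 0, and the list medians lie between -0.25 for the other tubulin genes and 0.06 for the folding genes. Tuba3a and Tuba3b share a probe set and each count as a gene.

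The genes around Tubb6 in the genome were looked at after its value was known. Among the nearest protein-coding genes on either side that could be matched, Cidea differed by 0.00 ± 0.12, Prelid3a by 0.00 ± 0.12 and the mitochondrial protease gene Afg3l2 by -0.27 ± 0.06 (all SE; limma adjusted p = 0.990, 0.996 and 0.0832). None met the limits for a call. The same holds for the neighbours of Tubg2 (Retreg3, Tubg1, Plekhh3 and Ccr10, from -0.16 to 0.13) and of Tube1 (Lama4, Fam229b, Ccn6 and Fyn, from -0.28 to -0.05).

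The array profile most like that of Tubb6 was sought among 18263 other probe sets with 1 symbol, by the root mean square difference over the 6 arrays after each was centred on its own mean. The closest was Tgm2, a transglutaminase gene, at 0.09 log2 units, followed by the receptor partner gene Ramp3 at 0.11, the cytokine gene Il24 at 0.14, and Rasgrp4, an activator of Ras, and the leukotriene receptor gene Cysltr1 at 0.16 each. Rasgrp4 read 6.98, 7.23 and 7.18 with vehicle and 5.60, 5.77 and 5.58 with icilin, and Cysltr1 read 7.00, 7.17 and 7.10 with vehicle and 5.63, 5.56 and 5.67 with icilin. The measure chiefly finds genes with a difference of like size, here between -1.78 and -1.47.

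**Figure D4:**
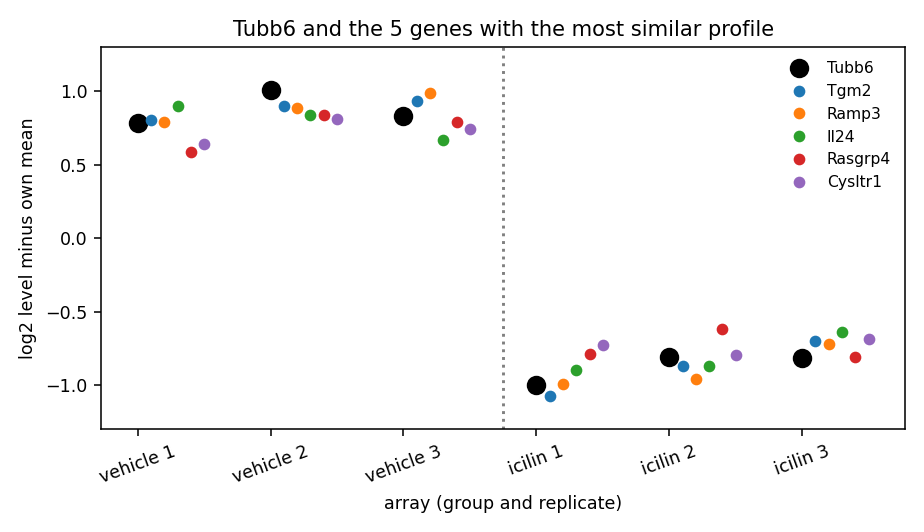
Log2 levels of Tubb6 (large black points) and of the 5 genes with the smallest root mean square difference from it, each minus its own mean, in the 6 arrays; points of an array are set side by side, and the dotted line parts vehicle from icilin. All 6 genes are above their own mean in the vehicle arrays and below it in the icilin arrays.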

How the data were processed

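The deposited values are on a log2 scale and were made by the authors with RMA, per the labels' design text and the submitters' processing notes: background correction, normalization between arrays and summary of probes into probe sets. RMA makes arrays alike in distribution, so a shift common to most genes would not show. Of all probe sets, 23521 had 1 gene symbol in the array annotation, 1814 several and 16010 none; the last were left out. Icilin and vehicle were compared over the 25335 named probe sets with limma 3.58.1 in R 4.3.3 (lmFit, eBayes with no trend; 4 residual and 3.09 prior degrees of freedom), two-sided, with Benjamini-Hochberg adjustment over all of them. Errors are SE from that fit or SD of 3 arrays. A list gene is read on its brightest probe set, those with 1 symbol first. Levels of different probe sets are not compared; a brightness percentile only shows how far a signal is from the dim end. Members and lists were chosen with earlier results of these data known. Named were all tubulin genes, up to 4 called members of each other list or, with none, that with the smallest p, and the 5 profiles most like Tubb6. Predicted genes, small RNAs and receptor segments were left out of the search for like profiles. They were found by their symbols, and the filter also removed every symbol that begins with Rn, whatever its class. SAM was written anew, with 20 permutations. Limma and SAM were tested on simulated data of 25335 probe sets with independent noise. The changed probe sets were all drawn from those brighter than the median. Limma recovered 93% and SAM 92% of 100 changed by 1 log2 unit, and each 99% of 100 changed by 2 units. Recovery among dimmer probe sets and of smaller changes was not tested. Tables were made with Python 3.11.15, pandas 2.3.3 and numpy 2.4.6, figures with matplotlib 3.10.9.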

Additional observations from a re-analysis of the deposited data

How the results depend on the processing

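The difference of Tubb6 was -1.80 to -1.68 with each array left out in turn and stayed within that range under median centring, quantile normalization, the dim filter, 1 probe set a gene and every probe set of the table. All 159 recomputed differences of the 14 member probe sets moved by less than the spread between replicates, while the sign of 4 near 0 (the brighter Tubb5, the dimmer Tuba1a, the Tuba1b and the Tuba4a probe sets) turned in 2 or 3 settings each. The mean over beta probe sets (-0.20) was -0.31 with dim probe sets left out, -0.01 without Tubb6 and 0.01 as a median, a choice made after seeing the data. It was -0.23 to -0.19, and the alpha mean -0.15 to -0.04, with each array left out. With the adjusted p limit at 0.05 and the fold limit dropped, 261 probe sets were higher and 490 lower, and pathway genes numbered 1 higher and 5 lower; with 2-fold, 18 and 74 probe sets and 0 pathway genes lower passed. With every probe set of the pathway genes counted, also chosen afterwards, 4 were lower, the fourth being Vim. Called probe sets numbered 76 to 105 higher and 229 to 263 lower with each array left out. With the replicate number as a block, 76 were called higher and 237 lower, and the same count of 3 pathway genes lower. Deviations of same-numbered arrays correlated at 0.00, -0.03 and -0.03, and those of differently numbered arrays at -0.02 to 0.05. These values cannot tell which arrays share a mouse. The main fit was unpaired and leaves the shared mice out of account. Precision is limited by 3 arrays a group.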
